A study of Rattus norvegicus with 36 samples.

Results

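Hippocampal RNA of rats (Rattus norvegicus) was compared between blast exposure and sham exposure, 6 weeks after exposure, in 10 of the 36 libraries of the series. All libraries that the labels place in hippocampus were taken, with no use of measured values. The 5 blast libraries carry the numbers 1, 2, 5, 6 and 9 in their titles and are called blast 1, 2, 5, 6 and 9 here, and the 5 sham libraries carry the numbers 10, 12, 13, 16 and 18. The title of blast 6 ends in "re", which the labels do not explain. The labels give no strain, age, sex or blast strength. No label says that the libraries came from separate animals, so the p-values measure the spread between these libraries, which may be technical.

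A blast wave is a pressure front that passes through the head, and exposure to it is a known cause of mild traumatic brain injury. In the hippocampus, granule cells of the dentate gyrus pass cortical input to CA3 pyramidal cells, which drive CA1 pyramidal cells, and this circuit is needed to form new memories. Neuronal activity switches on immediate early genes there, and microglia, the resident phagocytes of the brain, survey the synapses. Whole tissue was sequenced, so fewer cells of a type and less RNA per cell cannot be told apart in any result given here.

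Libraries held 15426786 to 23460322 counts on genes. Markers of the region were where the label puts them: Prox1, the transcription factor of dentate granule cells, had a median of 143 CPM (TMM-scaled counts per unit of library size) over the hippocampus libraries, against 21.8 CPM in amygdala, 14.0 CPM in anterior cortex and 52.1 CPM in cerebellum. C1ql2, a synaptic protein of the same cells, had a median of 159.8 CPM, against 23.2 CPM in amygdala, 1.63 CPM in anterior cortex and 3.11 CPM in cerebellum. Blast 6 stood apart from the other 9 libraries. On the first principal component, which held 33.7% of the variance, it lay at 70.32, and the others lay between -18.43 and 19.46.

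Marker genes in blast 6 differed from those of the others. A score per library was computed for each of 47 gene lists as the mean log2 CPM of the members tested. The choroid plexus, the secretory epithelium of the ventricles, is marked by the transthyretin gene Ttr and by 9 other genes tested. Its score was -1.30, 6.47, 3.20, 7.83 and 1.17 in blast 1, 2, 5, 6 and 9, and -0.28, 3.57, 0.94, -0.52 and -0.68 in sham 10, 12, 13, 16 and 18. The scores of the groups overlapped, with blast 6 and blast 2 highest and blast 1 lowest of all 10. The median log2 fold change of the list was 4.25 with 10 libraries, 2.80 without blast 6, 0.17 without blast 2 and 6 and 6.08 without sham 12, and 0.00060 when the list's own score was a covariate. Ttr had 2.07, 2274, 211, 7146 and 41.9 CPM in the blast libraries and 10.2, 459, 37.4, 6.54 and 6.54 CPM in the sham libraries, in the same order of numbers. Blast 6 also had the highest scores of the 10 for thalamus (4, against 2.79 to 3.18 in the others), neocortex layers (5.28, others 4.34 to 4.74) and myelin (8.73, others 7.02 to 7.62). It had the lowest score for dentate granule cells (5.55, others 6.13 to 6.54). Values in brackets after the CPM of a single gene are its log2 fold change of blast over sham ± SE, given for the 10 libraries and for the 9 without blast 6. The part of these markers in the other results was not tested beyond the fits without blast 6, without blast 2 and 6, and with choroid plexus score added as covariate.

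**Figure D1:**
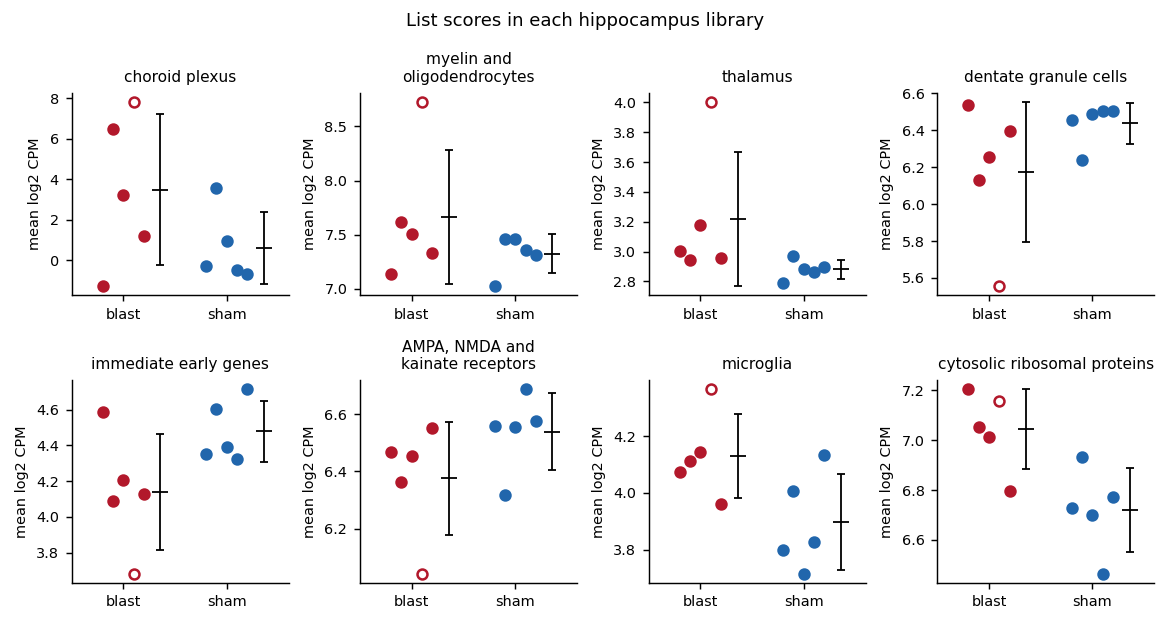
Mean log2 CPM of the tested members of 8 gene lists (y axis) in each of the 5 blast (red, left) and 5 sham (blue, right) hippocampus libraries, with the group mean and SD in black; the open point is blast 6. Blast 6 is the highest library for choroid plexus at 7.83, myelin at 8.73 and thalamus at 4, and the lowest for dentate granule cells at 5.55 and immediate early genes at 3.68. The axes of the panels differ and do not start at 0.

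No gene passed the threshold of an adjusted p under 0.05 by edgeR's quasi-likelihood test with Benjamini-Hochberg adjustment, over 15349 genes tested (0% called, smallest adjusted p = 0.816). Without blast 6 none of 15555 genes passed, with a smallest adjusted p of 0.999. DESeq2 called none either, and in the authors' deposited table the smallest adjusted p is 0.137. At an unadjusted p under 0.05, 805 genes (5.24%) were counted by edgeR, of which 609 (3.97%) were higher and 196 (1.28%) lower in blast, and DESeq2 counted 919 (5.99%). With no difference between the groups, about 1 in 20 genes would fall under an unadjusted p of 0.05. Over all genes the median log2 fold change was 0.00232 and 50.6% of genes were higher in blast. The values below are therefore descriptions of a ranking in which no gene was called, and every gene tested has an adjusted p of 0.816 or more by edgeR's test with 10 libraries.

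The ranking was shared in part without blast 6, and in fewer genes without blast 2 and 6. At an unadjusted p under 0.05, 503 genes (3.23%) were counted, 344 higher (2.21%) and 159 lower (1.02%), and without blast 2 and 6 the count was 351 (2.23%), 201 higher (1.28%) and 150 lower (0.952%). With choroid plexus score added as covariate the share was 1.93%, and in a fit of all 36 libraries, which share 1 estimate of the spread, it was 9.89%. Of the 805 genes, 383 were also under 0.05 without blast 6, 287 of them higher and 96 lower. All 805 kept their sign without it, in fits that share 9 libraries, and 709 had a smaller change. The 200 genes of smallest p held 166 higher and 34 lower genes with 10 libraries, and 134 higher and 66 lower genes without blast 6. These lists of equal size shared 123 genes (61.5%). The first list shared 75 genes with the 200 of smallest p without blast 2 and 6, and 78 with those of the fit that holds the choroid plexus score. Groups that did not overlap in CPM were found for 82 genes higher in blast (0.534%) and 48 lower (0.313%), which together are 0.847%. Without blast 6 the share was 1.16% and without blast 2 and 6 it was 2.20%, over fewer libraries. With fewer libraries more genes separate by chance, so these shares cannot be read as a growing separation. The share that chance alone gives was not computed, so a lack of overlap in a single gene is only a description.

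**Figure D2:**
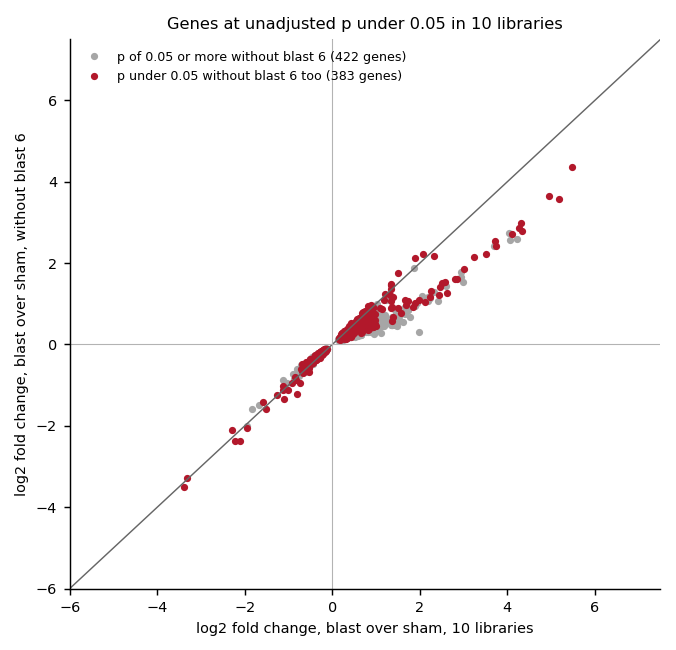
Log2 fold change of blast over sham with 10 libraries (x axis) and without blast 6 (y axis), 1 point for each of the 805 genes at an unadjusted p under 0.05 with 10 libraries; the line marks equal values. The 383 red genes were also under 0.05 without blast 6. Points at high x lie below the line, and the lower genes lie close to it.

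Among the genes that ranked highest with and without blast 6, Bmp4 encodes a secreted ligand of the bone morphogenetic protein family that early oligodendrocytes make. Bmp4 had 12.5, 11.2, 12.9, 19.4 and 12.1 CPM in blast 1, 2, 5, 6 and 9, and 8.40, 10.2, 10.1, 8.94 and 7.73 CPM in the sham libraries. All 5 blast libraries lay above all 5 sham libraries. Its log2 fold change was 0.58 ± 0.15 (SE), and 0.42 ± 0.11 without blast 6. Ptgfrn, a membrane protein that binds tetraspanins, had 31.9, 34.9, 29.0, 55.0 and 31.8 CPM in blast and 22.6, 26.7, 24.3, 23.2 and 26.2 CPM in sham. Here too the groups did not overlap, and blast 6 stood well above the other 4 blast libraries. Its log2 fold change was 0.57 ± 0.16 with blast 6 and 0.38 ± 0.08 without it.

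Lsp1, an actin-binding protein of leukocytes, had 3.19, 2.88, 3.16, 5.35 and 2.51 CPM in blast and 2.18, 1.94, 1.39, 1.80 and 1.32 CPM in sham. These low levels did not overlap, and the log2 fold change was 0.97 ± 0.24, or 0.76 ± 0.20 without blast 6. Copz2, a subunit of the COPI vesicle coat, was as low, at 1.64 to 4.34 CPM in blast and 0.432 to 1.30 CPM in sham, again with no overlap (log2 fold change 1.35 ± 0.34, and 1.07 ± 0.31 without blast 6). Ccdc152, a coiled-coil gene, had 17.1, 19.6, 15.0, 15.1 and 14.0 CPM in blast and 10.4, 13.8, 11.3, 11.4 and 11.2 CPM in sham. Its groups were apart by a narrow margin, 14.0 CPM in blast 9 against 13.8 CPM in sham 12. Its log2 fold change did not shrink without blast 6 (0.47 ± 0.12 with it, 0.50 ± 0.12 without it). Mtdh, an RNA-binding protein of the endoplasmic reticulum, was at 21.3 to 33.0 CPM in blast and 18.7 to 21.8 CPM in sham, with blast 9 the blast library within the sham range (log2 fold change 0.44 ± 0.11, and 0.36 ± 0.10 without blast 6).

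The other genes of smallest p that were higher in blast include AC127920.1, a processed pseudogene per the deposited annotation and the gene of smallest p in all. AC127920.1 had 3.41, 3.38, 1.83, 2.20 and 4.64 CPM in blast and 1.03, 1.57, 1.39, 1.08 and 0.924 CPM in sham, and its log2 fold change was 1.35 ± 0.28. Reads of such a copy can be shared with its parent gene, so its value is uncertain. LOC497899, LOC100360841 and LOC100363452, known here only by these symbols, had log2 fold changes of 0.92 ± 0.20, 0.68 ± 0.16 and 0.38 ± 0.10. Upk1a, a urothelial tetraspanin gene, was at 0.615 to 1.58 CPM in blast and 0.231 to 0.600 CPM in sham (log2 fold change 1.4 ± 0.36, and 1.16 ± 0.37 without blast 6), with no overlap at these very low levels.

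Fundc2, which encodes a protein of the outer mitochondrial membrane, led the lower genes. It had 19.8, 30.7, 23.1, 23.6 and 22.4 CPM in blast and 35.6, 36.1, 33.6, 32.3 and 29.4 CPM in sham. Only blast 2 reached into the sham range, and the log2 fold change was -0.48 ± 0.11, the same without blast 6 and -0.62 without blast 2 and 6. Ndst3, an enzyme that modifies heparan sulphate in the brain, had 15.7, 13.1, 12.2, 9.18 and 16 CPM in blast and 17.7, 16.6, 17.9, 21.8 and 20 CPM in sham. Its groups did not overlap (log2 fold change -0.50 ± 0.14, and -0.40 ± 0.11 without blast 6). Rrn3, the initiation factor of RNA polymerase I, was at 17.8 to 25 CPM in blast and 24.5 to 29.6 CPM in sham, with blast 5 inside the sham range (log2 fold change -0.37 ± 0.10, and -0.32 ± 0.10 without blast 6). Dpp9, a cytosolic dipeptidyl peptidase, was at 66.1 to 88.4 CPM in blast and 94.9 to 104 CPM in sham, with no overlap (log2 fold change -0.26 ± 0.08, and -0.19 ± 0.05 without blast 6).

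Serinc2, a membrane protein, had 33.4, 32.3, 51.5, 23.5 and 38.6 CPM in blast and 68.8, 44.9, 59.5, 55.8 and 66.1 CPM in sham, so that blast 5 lay above sham 12. Its log2 fold change was -0.72 ± 0.18. Pnpla1, a lipase family gene, had 2.50, 1.47, 1.53, 0.788 and 2.51 CPM in blast and 1.97, 2.45, 11.5, 17.3 and 10.2 CPM in sham. Sham 10 and sham 12 lay among the blast libraries and the 3 other sham libraries far above them, and the log2 fold change was -2.29 ± 0.57. Pla2g4f, a cytosolic phospholipase A2 gene, was at 0.543 to 0.903 CPM in blast and 0.960 to 2.71 CPM in sham (log2 fold change -1.11 ± 0.33, and -1.03 ± 0.35 without blast 6). Ptprh, a receptor phosphatase, was at 1.21 to 2.29 CPM in blast and 2.14 to 2.82 CPM in sham (-0.68 ± 0.20, and -0.65 ± 0.22 without blast 6). LOC362863, the pseudogene AABR07031521.1 and LOC100910838 completed the 10 lower genes of smallest p, with log2 fold changes of -0.56 ± 0.14, -0.31 ± 0.08 and -1.26 ± 0.36. Cpne1, a calcium-dependent lipid-binding protein, was singled out after its values were seen, as the gene that passed the threshold when blast 9 was left out (adjusted p = 0.00119 by edgeR's quasi-likelihood test). It had 2.33, 2.20, 1.48, 1.86 and 12.2 CPM in blast and 10, 16.6, 10.7, 11.2 and 11.4 CPM in sham, so blast 9 lay among the sham libraries.

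Immediate early genes were the list with the lowest median. Of 22 members tested, 1 was higher and 21 were lower in blast, with a median log2 fold change of -0.25, against 0.00232 over all genes. Their median rank was 89.05% of the way from the most higher gene to the most lower one. Without blast 6 the split was 2 higher and 20 lower and the median -0.15, and with blast 2 and 6 both left out the median was -0.13. The score was 4.59, 4.09, 4.21, 3.68 and 4.13 in blast 1, 2, 5, 6 and 9, and 4.35, 4.61, 4.39, 4.33 and 4.71 in sham 10, 12, 13, 16 and 18. Blast 1 lay within the sham range and the other 4 blast libraries below it.

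Nr4a1, Arc, Egr1 and Egr2 were the 4 members at an unadjusted p under 0.05 with 10 libraries, of 196 lower genes (1.28%) in all. Without blast 6 none of these 4 was under 0.05, and 1 of the 22 members, Egr4, was, against 1.02% of all genes on the lower side. Promoter sequences (250 bases before to 50 after the start, rat build GRCr8, from RefSeq) were matched by symbol for 17 of the 22 genes and for 3 of these 4. They lie at chr18:26736828-26737127 on the plus strand for Egr1, at chr20:21054392-21054691 on the minus strand for Egr2 and at chr7:134259888-134260187 on the plus strand for Nr4a1. They are shown since calcium and growth-factor signals reach these genes through their promoters. Capitals mark matches, on either strand, to TGACG, the core of the cyclic AMP response element (CRE), and to the CArG box bound by serum response factor.
Egr1: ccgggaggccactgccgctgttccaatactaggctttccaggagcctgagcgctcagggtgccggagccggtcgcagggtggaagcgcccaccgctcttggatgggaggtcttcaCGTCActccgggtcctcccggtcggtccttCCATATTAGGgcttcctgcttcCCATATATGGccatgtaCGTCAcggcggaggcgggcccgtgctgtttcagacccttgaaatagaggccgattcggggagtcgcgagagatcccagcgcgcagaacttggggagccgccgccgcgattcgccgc
Egr2: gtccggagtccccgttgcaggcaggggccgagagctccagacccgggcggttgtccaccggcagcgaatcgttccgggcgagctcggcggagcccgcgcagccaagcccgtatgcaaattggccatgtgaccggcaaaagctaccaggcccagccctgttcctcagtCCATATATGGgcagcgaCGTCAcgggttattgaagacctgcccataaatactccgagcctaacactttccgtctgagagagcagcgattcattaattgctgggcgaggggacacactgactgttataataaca
Nr4a1: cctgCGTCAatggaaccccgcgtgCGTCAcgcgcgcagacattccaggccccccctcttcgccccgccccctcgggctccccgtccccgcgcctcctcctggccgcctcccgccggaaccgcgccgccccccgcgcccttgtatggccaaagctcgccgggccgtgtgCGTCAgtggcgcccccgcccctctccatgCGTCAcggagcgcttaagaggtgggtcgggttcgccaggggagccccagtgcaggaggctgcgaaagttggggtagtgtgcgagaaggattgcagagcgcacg

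The Egr1 sequence holds 2 CArG boxes and 2 copies of TGACG, all 4 within the stretch before the start, and the Egr2 sequence holds 1 CArG box and 1 TGACG. In the Nr4a1 sequence there are 4 copies of TGACG and no CArG box. A CArG box stands in 3 of the 17 promoters, against 1.64% of 33469 promoters in the table, and TGACG in 10 of the 17, against 21.2%. The full palindromic CRE, TGACGTCA, whose letters include TGACG, stands in 3 of the 17, against 1.83%. A match is a description of the letters and does not show that a factor binds there.

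In these genes the lower values were spread over most blast libraries. Nr4a1, a nuclear receptor induced by activity, had 45.9, 38.6, 28.1, 27.2 and 33.0 CPM in blast 1, 2, 5, 6 and 9, and 39.2, 53.3, 40.5, 38.5 and 53.2 CPM in sham. Blast 1 and blast 2 overlapped the sham range, and the log2 fold change was -0.38 ± 0.16, or -0.30 without blast 6. Egr1, a zinc finger factor, had 89.9, 69.9, 62.1, 46.4 and 89.1 CPM in blast and 85.8, 124, 81.8, 80.2 and 103 CPM in sham. Its log2 fold change was -0.41 ± 0.18, and -0.29 without blast 6. Arc, whose protein controls AMPA receptor removal at synapses, had 82.7, 63.2, 66.9, 38.5 and 63.8 CPM in blast and 64.6, 113, 70.2, 76.9 and 123 CPM in sham. The high sham libraries were 12 and 18 for Egr1, Arc and Nr4a1, and in all 3 genes blast 1 lay above the 3 other sham libraries.

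Egr2, at 0.169 to 1.18 CPM in blast and 0.600 to 3.10 CPM in sham, was too low for more than a direction (log2 fold change -1.12 ± 0.51, and -0.88 ± 0.46 without blast 6). Egr4 was the member of 22 whose groups did not overlap, against 0.313% of all genes lower without overlap. It had 17.2, 17.4, 17.8, 7.32 and 18.4 CPM in blast and 21.6, 23.1, 19.2, 22.0 and 19.8 CPM in sham. The log2 fold change was -0.44 ± 0.20 with blast 6 and -0.26 ± 0.08 without it. Fos, the classical activity marker, had 2.65 to 7.11 CPM in blast and 2.78 to 8.12 CPM in sham (-0.35 ± 0.30, and -0.32 ± 0.32 without blast 6), and Npas4, a factor induced by calcium entry, varied from 1.81 to 14.4 CPM in blast and from 3.77 to 17.8 CPM in sham. Their spread within a group was too wide to place them.

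Bdnf, the activity-regulated neurotrophin that strengthens synapses, had 42.2, 31.5, 43.5, 17.8 and 39.8 CPM in blast and 55.3, 54.4, 46.4, 51.8 and 42.5 CPM in sham. Sham 18 alone lay within the blast range. The change on the log2 scale was -0.52 ± 0.20, -0.35 ± 0.11 without blast 6 and -0.26 without blast 2 and 6. Ntrk2, which encodes the Bdnf receptor TrkB, was at 638 to 772 CPM in blast and 610 to 706 CPM in sham (0.12 ± 0.08, and 0.09 ± 0.06 without blast 6). The 15 neurotrophin and receptor genes tested split into 8 higher and 7 lower, with a median of 0.02.

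**Figure D3:**
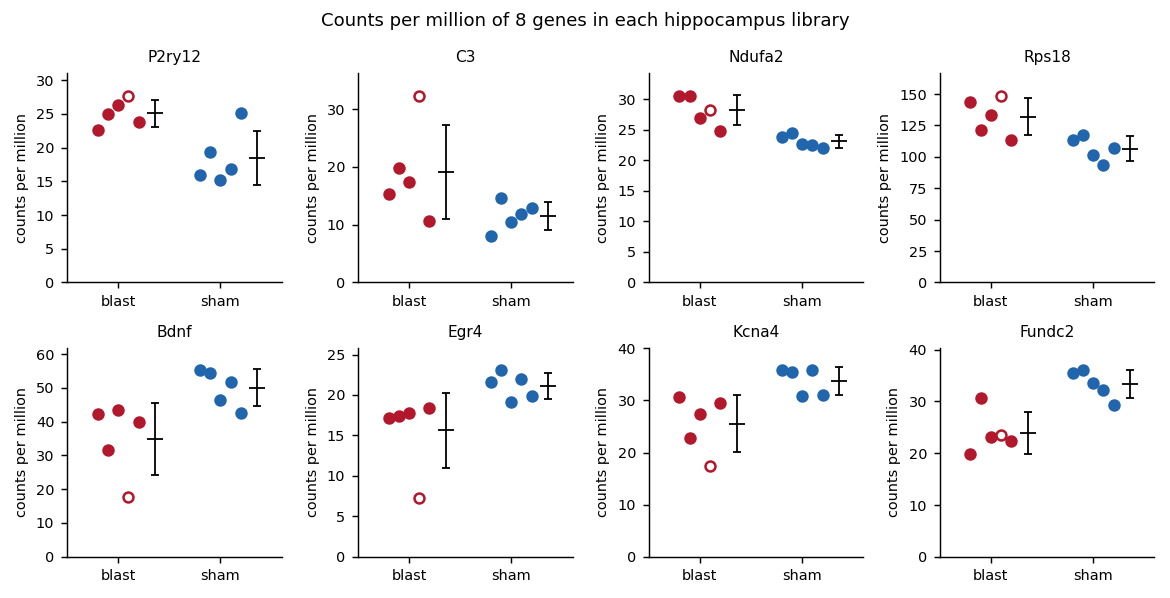
CPM (y axes, from 0) of P2ry12, C3, Ndufa2, Rps18, Bdnf, Egr4, Kcna4 and Fundc2 in each of the 5 blast (red, left) and 5 sham (blue, right) hippocampus libraries, with the group mean and SD in black; the open point is blast 6. Ndufa2 is higher in every blast library than in every sham library, Egr4 and Kcna4 are lower in every blast library, and in the other 5 panels the groups overlap.

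In the deposited annotation, whose build no label names and which is not set beside the GRCr8 positions given above, the protein-coding genes of the plot lie as follows. P2ry12 (ENSRNOG00000013902) lies at chr2:149441598-149444548 on the minus strand, and C3 (ENSRNOG00000046834) lies at chr9:9721105-9747167 on the plus strand. Ndufa2 (ENSRNOG00000017571) lies at chr18:29585671-29587760 on the minus strand, and Rps18 (ENSRNOG00000028505) lies at chr20:5441876-5445553 on the plus strand. Bdnf (ENSRNOG00000047466) lies at chr3:100768637-100819210 on the plus strand, and Egr4 (ENSRNOG00000015719) lies at chr4:117293620-117296082 on the minus strand. Kcna4 (ENSRNOG00000004918) lies at chr3:98297554-98300680 on the plus strand, and Fundc2 (ENSRNOG00000024066) lies at chr18:402295-407954 on the plus strand.

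Principal cells of the dentate gyrus and CA1 had lower list medians, nearer to 0 without blast 6. All 9 dentate granule cell genes tested were lower in blast with 10 libraries (median -0.21), but 7 of 9 without blast 6 (median -0.10), and the median was 0.01 without blast 2 and 6. Prox1 had 157, 126, 131, 87.5 and 153 CPM in blast and 137, 108, 145, 173 and 151 CPM in sham. Its groups overlapped throughout, and its log2 fold change of -0.12 ± 0.16 turned to 0.044 without blast 2 and 6. Dsp, the desmosomal protein desmoplakin that granule cells express, had 21.1, 19.0, 17.7, 16.6 and 24.9 CPM in blast and 27.8, 18.1, 31.5, 31.3 and 36.5 CPM in sham. Sham 12 lay among the blast libraries and the 4 other sham libraries above all of them, and the log2 fold change was -0.55 ± 0.17, or -0.49 ± 0.17 without blast 6.

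Of 6 CA1 genes tested, 5 were lower in blast with 10 libraries and all 6 without blast 6, with medians of -0.22 and -0.12. Wfs1, an endoplasmic reticulum protein strong in CA1, was at 252 to 489 CPM in blast and 372 to 560 CPM in sham (-0.23 ± 0.17, and -0.12 ± 0.14 without blast 6). Man1a1, a mannosidase, had 35.4, 42.4, 35.8, 40.4 and 36 CPM in blast and 43.3, 37.2, 47.5, 40.9 and 49.7 CPM in sham, with sham 12 and sham 16 inside the blast range (-0.20 ± 0.09, and -0.22 ± 0.09 without blast 6). The 7 CA3 genes had a median of -0.08 with 10 libraries and 0.06 without blast 6. Grik4, a kainate receptor subunit of CA3, was at 61.2 to 125 CPM in blast and 98.1 to 135 CPM in sham (-0.27 ± 0.16, and -0.13 ± 0.10 without blast 6). The 7 CA2 genes had medians of -0.07 and 0.02.

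Genes of excitatory synapses were lower by small amounts that shrank without blast 6. All 15 AMPA, NMDA and kainate receptor subunits were lower with 10 libraries (median -0.18), and 13 of 15 without blast 6 (median -0.07). When the choroid plexus score was in the model, 4 of the 15 were higher (median -0.028). Grin1, the obligatory NMDA receptor subunit, had 627, 655, 642, 395 and 698 CPM in blast and 737, 674, 673, 687 and 640 CPM in sham. Blast 6 was far below the rest, and the log2 fold change was -0.18 ± 0.13 with it and -0.06 ± 0.06 without it. Gria1, an AMPA receptor subunit, had -0.21 ± 0.16 with blast 6 and -0.07 ± 0.09 without it. Gria3, another subunit, was at 225 to 311 CPM in blast and 279 to 321 CPM in sham (-0.18 ± 0.09, and -0.12 ± 0.07 without blast 6). Grm2, a presynaptic metabotropic receptor, had 50.8, 36, 43.3, 23.0 and 41.9 CPM in blast and 55.7, 36.4, 54.2, 56.7 and 64.3 CPM in sham. Sham 12 lay among the blast libraries (-0.45 ± 0.19, and -0.31 ± 0.14 without blast 6).

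On the postsynaptic side, 15 of 18 scaffold and plasticity genes were lower with 10 libraries (median -0.09) but 8 of 18 without blast 6 (median 0.01). Camk2a, the abundant calcium-dependent kinase, was at 1457 to 2774 CPM in blast and 2192 to 2799 CPM in sham (-0.10 ± 0.16, and 0.03 ± 0.07 without blast 6), and turned to 0.032 without blast 6. Of 19 vesicle release genes, 17 were lower with 10 libraries (median -0.13) and 16 without blast 6 (median -0.04). Syn1 (synapsin I, which tethers vesicles) had -0.19 ± 0.12 with 10 libraries and -0.09 ± 0.06 without blast 6, and Snap25, a fusion protein, -0.13 ± 0.10 and -0.07 ± 0.07.

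Ion channel lists also had lower medians with blast 6 included. Of 23 potassium channel genes, 21 were lower with 10 libraries (median -0.12) and 18 without blast 6 (median -0.07). When the choroid plexus score was in the model, 12 of the 23 were higher (median 0.00047). Kcna4, a fast-inactivating channel subunit of hippocampal axons, was the member of this list whose groups did not overlap, against 0.313% of all genes lower without overlap. It had 30.7, 22.8, 27.4, 17.5 and 29.5 CPM in blast and 35.9, 35.4, 30.8, 35.8 and 31.0 CPM in sham. The groups did not overlap, by the margin between blast 1 and sham 13, and the log2 fold change was -0.40 ± 0.14, or -0.29 ± 0.10 without blast 6. Of 23 sodium and calcium channel genes, 20 were lower with and without blast 6, with medians of -0.14 and -0.05. When the choroid plexus score was in the model, 10 of the 23 were higher (median -0.0077). Cacna1c, an L-type calcium channel subunit, was at 54.2 to 113 CPM in blast and 83.2 to 125 CPM in sham (-0.31 ± 0.17, and -0.17 ± 0.11 without blast 6). Sham 12 had the lowest sham score in both channel lists, 5.90 and 6.98.

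Inhibitory neurons gave values that hardly moved with blast 6. Of 14 interneuron genes, 10 were lower with 10 libraries and 12 without blast 6 (medians -0.05 and -0.06). Gad2, an enzyme that makes GABA, had 109, 124, 121, 128 and 145 CPM in blast and 167, 127, 160, 170 and 123 CPM in sham. Sham 12 and sham 18 lay within the blast range and the 3 other sham libraries above it (-0.25 ± 0.11, and -0.26 ± 0.11 without blast 6). Sst, the somatostatin precursor of dendrite-targeting interneurons, had 26.3, 26.4, 24.9, 26.9 and 17.7 CPM in blast and 30.7, 29.0, 34.0, 25.3 and 29.7 CPM in sham. Here blast 9 was the lowest blast library and sham 16 alone of the sham libraries lay in the blast range (-0.28 ± 0.12, and -0.32 ± 0.12 without blast 6). Gad1 was at 104 to 124 CPM in blast and 107 to 140 CPM in sham (-0.12 ± 0.08, and -0.08 ± 0.07 without blast 6). Pvalb, of fast-spiking basket cells, was at 22.4 to 28.0 CPM in blast and 22.4 to 31.3 CPM in sham (-0.04 ± 0.10, and -0.04 ± 0.11 without blast 6).

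The 13 GABA-A receptor subunits had 9 lower members and a median of -0.09, or 8 and -0.05 without blast 6. Of 21 hippocampal neuropeptide genes, 15 were lower (median -0.10) and 16 without blast 6 (median -0.10). Scg2, a secretogranin of dense-core vesicles, was at 158 to 286 CPM in blast and 271 to 323 CPM in sham (-0.28 ± 0.13, and -0.16 ± 0.07 without blast 6). Pdyn, the dynorphin precursor of granule cells, spread from 20 to 86.1 CPM in blast, with blast 6 lowest, and from 65.5 to 78.5 CPM in sham (-0.25 ± 0.27, and -0.03 ± 0.11 without blast 6).

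Of 13 acetylcholine genes, 2 muscarinic receptors, Chrm1 and Chrm5, were lower with no overlap, against 0.313% of all genes, and none of 22 serotonin and monoamine genes was without overlap. Htr1b, a presynaptic serotonin receptor, had 9.40, 10.7, 7.90, 7.38 and 11.1 CPM in blast and 17.0, 10.1, 12.5, 10.7 and 15.3 CPM in sham (-0.49 ± 0.17, and -0.42 ± 0.17 without blast 6). Sham 12 and sham 16 lay in the blast range. Htr2c, a serotonin receptor that choroid plexus also expresses, had 80.1 and 227 CPM in blast 2 and 6, 12.4 to 29.6 CPM in the 3 other blast libraries and 15.9 to 29.9 CPM in sham, and its log2 fold change of 1.77 ± 0.70 turned to -0.20 without blast 2 and 6. Chrm1, the main muscarinic receptor of pyramidal cells, had 125, 134, 140, 78.4 and 143 CPM in blast and 158, 144, 145, 155 and 145 CPM in sham. Its groups did not overlap, with 143 CPM in blast 9 and 144 CPM in sham 12 closest (-0.27 ± 0.13, and -0.14 ± 0.06 without blast 6). Maob, a monoamine oxidase of astrocytes, was at 68.9 to 83.6 CPM in blast and 64.2 to 72.4 CPM in sham (0.19 ± 0.07, and 0.16 ± 0.07 without blast 6).

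Microglial genes were higher in blast, and the list's median moved little without blast 6. All 15 members tested were higher with 10 libraries and 14 of 15 without blast 6, with medians of 0.24 and 0.20, and the median was 0.16 without blast 2 and 6. The lowest and highest medians on leaving out any library were 0.20 without blast 6 and 0.29 without sham 18. The score was 4.07, 4.11, 4.15, 4.37 and 3.96 in blast 1, 2, 5, 6 and 9, and 3.80, 4.01, 3.72, 3.83 and 4.13 in sham 10, 12, 13, 16 and 18. Sham 12 and sham 18 lay within the blast range, and the 3 other sham libraries below it.

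At an unadjusted p under 0.05 stood 4 of the 15 in either fit, P2ry12, Csf1r, Laptm5 and Cx3cr1, against 3.97% of all genes higher with 10 libraries and 2.21% without blast 6. P2ry12, the ADP receptor by which resting microglia sense injury, had 22.6, 24.9, 26.4, 27.7 and 23.8 CPM in blast and 15.9, 19.3, 15.2, 16.8 and 25.1 CPM in sham. Sham 18 was at blast level and the 4 other sham libraries below every blast library. The log2 fold change was 0.44 ± 0.13, or 0.41 ± 0.14 without blast 6. Csf1r, the receptor on which microglia depend to survive, was at 95.6 to 113 CPM in blast and 81.1 to 102 CPM in sham (0.24 ± 0.08, and 0.21 ± 0.08 without blast 6). Cx3cr1, the receptor for neuronal fractalkine, was at 21.5 to 25.5 CPM in blast and 16.9 to 22.0 CPM in sham (0.24 ± 0.09, and 0.20 ± 0.08 without blast 6). Laptm5, a lysosomal membrane protein of microglia and blood leukocytes, was at 23.2 to 29.9 CPM in blast and 18.7 to 25 CPM in sham (0.28 ± 0.10, and 0.24 ± 0.10 without blast 6).

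The median of activated microglia genes was lower without blast 6. Of 14 tested, 13 were higher with 10 libraries (median 0.32) and 11 without blast 6 (median 0.12). It was 0.051 without blast 2 and 6, and 0.025 with 8 of 14 higher when the choroid plexus score was in the model. Ctsz, a lysosomal cathepsin, had 14.7, 14.7, 14.6, 23.0 and 12.7 CPM in blast and 11.1, 11.7, 10.3, 7.80 and 11.6 CPM in sham. Its groups did not overlap with or without blast 6, against 0.534% of all genes higher without overlap in 10 libraries, and the log2 fold change was 0.60 ± 0.17, or 0.43 ± 0.12 without it. Cd68, the lysosomal marker used to stain phagocytic microglia, was near 1 CPM, at 0.790 to 1.69 CPM in blast and 0.728 to 1.30 CPM in sham (0.35 ± 0.27, and 0.24 ± 0.28 without blast 6).

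Complement genes had a median above 0 with and without blast 6. Among them C3, the central component, had 15.3, 19.9, 17.4, 32.3 and 10.7 CPM in blast and 8.05, 14.5, 10.4, 11.8 and 12.8 CPM in sham (0.73 ± 0.26, and 0.46 ± 0.19 without blast 6). C1qa, a chain of the initiating complex that microglia make, was at 26.4 to 45.2 CPM in blast and 25.4 to 38.4 CPM in sham (0.12 ± 0.15, and 0.11 ± 0.15 without blast 6). Over the list, 14 of 18 were higher (median 0.20) and 13 without blast 6 (median 0.11), and without blast 2 and 6 the median was 0.026.

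Of 24 interferon response genes, 21 were higher with 10 libraries (median 0.21) and 16 without blast 6 (median 0.09), and without blast 2 and 6 the median was 0.029. Mx1, an antiviral GTPase, had 1.81, 2.82, 3.51, 2.36 and 1.73 CPM in blast and 1.16, 2.13, 1.10, 1.44 and 1.06 CPM in sham. Among sham libraries, sham 12 alone lay in the blast range, and the log2 fold change was 0.82 ± 0.27, or 0.83 ± 0.29 without blast 6. Ifnar1, a chain of the type I interferon receptor, was at 87.9 to 97.0 CPM in blast and 76.1 to 88.2 CPM in sham (0.16 ± 0.06, and 0.15 ± 0.06 without blast 6). All 13 antigen presentation genes were higher with 10 libraries (median 0.41) and 12 without blast 6 (median 0.14), and without blast 2 and 6 the median was 0.050. Cd74, the invariant chain of class II molecules, had 33.4 CPM in blast 6, 3.19 to 10.2 CPM in the other blast libraries and 3.30 to 6.71 CPM in sham. On the log2 scale the fold change was 1.13 ± 0.58 with blast 6 and 0.13 ± 0.32 without it. RT1-Db1, a class II chain, was at 0.670 to 3.83 CPM in blast and 0.396 to 0.960 CPM in sham (1.37 ± 0.44, and 0.93 ± 0.37 without blast 6). B2m, shared by class I molecules, was at 207 to 352 CPM in blast and 201 to 235 CPM in sham (0.25 ± 0.13, and 0.11 ± 0.07 without blast 6). The 18 cytokine and NF-kB genes had medians of 0.13 and 0.02.

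Astrocyte identity genes were slightly higher, and the markers of reactivity gave no separation. All 14 identity genes were higher with 10 libraries and 12 without blast 6 (medians 0.10 and 0.07). Aqp4, the water channel of astrocyte endfeet, was at 536 to 718 CPM in blast and 577 to 611 CPM in sham (0.04 ± 0.08, and -0.03 ± 0.05 without blast 6). Glul, glutamine synthetase, was at 905 to 1300 CPM in blast and 801 to 1058 CPM in sham (0.21 ± 0.11, and 0.13 ± 0.08 without blast 6). Gfap, the filament protein that marks reactive astrocytes, had 858, 1087, 1088, 1169 and 910 CPM in blast and 930, 1150, 904, 973 and 1036 CPM in sham, with full overlap (0.03 ± 0.11, and -0.02 ± 0.09 without blast 6). Vim, another filament gene, had 117 CPM in blast 6, 39.3 to 73.7 CPM in the other blast libraries and 47.6 to 73.0 CPM in sham (0.30 ± 0.23, and 0.06 ± 0.17 without blast 6). The 13 reactive genes had medians of 0.30 and 0.02.

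The median of the myelin genes lay near 0 without blast 6. All 17 were higher with 10 libraries (median 0.38), and the median was 0.03 without blast 6 and -0.01 without blast 2 and 6. Mbp, myelin basic protein, had 12350 CPM in blast 6, 4635 to 5403 CPM in the other blast libraries and 3766 to 5467 CPM in sham. Enpp2 (autotaxin), in the myelin list but also made by choroid plexus, was highest in blast 6 and blast 2, with 83.8, 848, 188, 1947 and 123 CPM in blast and 86.0, 158, 125, 112 and 99.1 CPM in sham. The 10 precursor genes, among them Bmp4, had medians of 0.22 and -0.01.

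Endothelial genes were mostly higher in blast with and without blast 6, while mural and meningeal genes had medians near 0 without blast 2 and 6, and none passed the adjusted threshold. All 14 endothelial genes were higher with 10 libraries and 13 without blast 6, with medians of 0.14 and 0.05. Vwf, stored by endothelial cells, was at 34.5 to 48.1 CPM in blast and 29.4 to 46.3 CPM in sham (0.10 ± 0.13, and 0.03 ± 0.12 without blast 6). Of 12 mural cell genes, 9 were higher with 10 libraries (median 0.10) and 5 without blast 6 (median -0.01). Vtn, vitronectin, the mural cell gene of smallest p, had 18.6, 19.3, 20.8, 19.2 and 19.1 CPM in blast and 17.1, 13.9, 17.3, 12.5 and 19.1 CPM in sham. Its blast libraries lay close together, sham 18 at their level and the 4 other sham libraries below them (0.28 ± 0.11, and 0.28 ± 0.12 without blast 6). Fn1, fibronectin, had 43.5, 38.2, 37.5, 54.2 and 30.1 CPM in blast and 29.2, 21.9, 27.7, 29.8 and 33.6 CPM in sham, with blast 9 below sham 18 (0.52 ± 0.15, and 0.39 ± 0.13 without blast 6). Of 12 fibroblast genes, 10 were higher with 10 libraries (median 0.39) and 8 without blast 6 (median 0.17). Without blast 2 and 6, 6 of 12 were higher, with a median of -0.00093. At an unadjusted p under 0.05 and higher stood 5 of 12 with 10 libraries, against 3.97% of all genes, and 1 without blast 6, against 2.21%. Col1a1 was at 9.36 to 17.2 CPM in blast and 7.68 to 10.6 CPM in sham (0.39 ± 0.17, and 0.21 ± 0.12 without blast 6).

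Cytosolic ribosomal protein genes had the highest number of members at an unadjusted p under 0.05 of the 47 lists, while choroid plexus genes had the highest share, 10 of 10. Of 41 tested, 40 were higher and 1 was lower with 10 libraries, and the split was the same without blast 6. Their median log2 fold change was 0.20 with 10 libraries, 0.16 without blast 6 and 0.15 without blast 2 and 6, and their median rank was 4.89% of the way from the most higher gene. At an unadjusted p under 0.05 and higher stood 19 of 41, against 3.97% of all genes, and 14 of 41 without blast 6, against 2.21%. The score was 7.2, 7.05, 7.01, 7.16 and 6.80 in blast 1, 2, 5, 6 and 9, and 6.73, 6.93, 6.70, 6.46 and 6.77 in sham 10, 12, 13, 16 and 18. Sham 12 lay above blast 9, and otherwise the groups were apart, blast 9 by a narrow margin (6.80, against 6.77 in sham 18). The score includes Rps6, which had 34.9 CPM in blast 9 and 1.54 and 1.19 CPM in sham 10 and 18. A score without Rps6 was not computed, so the place of blast 9 above sham 10 and 18 can depend on that gene.

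Rps18 had 143, 121, 134, 149 and 114 CPM in blast and 114, 118, 102, 93.4 and 107 CPM in sham, and sham 12 lay above the lowest blast library, blast 9. The change on the log2 scale was 0.31 ± 0.09, or 0.26 ± 0.08 without blast 6. Rps23 was at 147 to 206 CPM in blast and 112 to 162 CPM in sham (0.35 ± 0.11, and 0.29 ± 0.10 without blast 6), Rps16 at 151 to 250 CPM in blast and 137 to 167 CPM in sham (0.38 ± 0.12, and 0.29 ± 0.10 without blast 6), and Rpl37a at 108 to 174 CPM in blast and 88.8 to 121 CPM in sham (0.48 ± 0.12, and 0.43 ± 0.12 without blast 6). Rpl3, of the large subunit, was at 348 to 368 CPM in blast and 323 to 396 CPM in sham (0.06 ± 0.07, and 0.06 ± 0.06 without blast 6). Rps6 had 73.6, 33.5, 78.9, 2.48 and 34.9 CPM in blast and 1.54, 58.6, 3.26, 2.16 and 1.19 CPM in sham, so each group held libraries near 2 CPM and libraries above 30 CPM (1.73 ± 1.06, and 2.02 ± 0.93 without blast 6). Rpl7a had 106 CPM in sham 12 and 1.56 to 2.72 CPM in the other 9 libraries (-3.32 ± 1.19, and -3.29 ± 1.31 without blast 6). Without sham 12 its log2 fold change was 0.15. This Rpl7a entry and Rpl37a are not among the 41 genes counted above. Ribosomal protein genes have near-identical pseudogene copies between which the authors' counting could split reads, so the values of single genes are uncertain.

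Short genes as a class were slightly higher in blast. Over genes split into 5 groups by the deposited gene length, the median log2 fold change was 0.042 in the shortest group (49 to 1296 bases), and 59.1% of these were higher. It was -0.016 in the longest group, where 45.0% were higher, and the order was the same without blast 6 (0.033 and -0.012). The ribosomal protein genes tested had a median length of 765 bases. The 2108 other genes between 527 and 1258 bases long, the middle part of their range, had a median of 0.038, below the 0.20 of the list. The part of length in the list's value was not tested further.

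Nuclear genes of oxidative phosphorylation, also short, had 30 of 38 members higher with and without blast 6 and a median of 0.06 in both, against 0.032 for the 2795 other genes of like length. Leaving out other libraries moved this median more, from 0.011 without sham 16 to 0.12 without sham 12, and adding the choroid plexus score to the model left 20 of 38 higher (median 0.025). Ndufa2, an accessory subunit of complex I, had 30.5, 30.6, 27.0, 28.2 and 24.8 CPM in blast and 23.9, 24.4, 22.6, 22.4 and 22.1 CPM in sham. The groups did not overlap, against 0.534% of all genes higher without overlap, and the log2 fold change was 0.29 ± 0.08 with blast 6 and without it. Cox4i1, of complex IV, was at 311 to 369 CPM in blast and 271 to 359 CPM in sham (0.09 ± 0.08, and 0.10 ± 0.08 without blast 6). Of 13 genes of the mitochondrial genome, 11 were higher (median 0.05, and -0.00091 without sham 10), and Mt-co1 was at 24673 to 29922 CPM in blast and 22805 to 32001 CPM in sham (0.06 ± 0.13, and 0.06 ± 0.09 without blast 6). Mt-nd3, a very short complex I gene, had 1046, 831, 718, 852 and 656 CPM in blast and 598, 716, 602, 438 and 720 CPM in sham (0.42 ± 0.15, and 0.40 ± 0.16 without blast 6). The 28 proteasome genes had a median of 0.01.

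**Figure D4:**
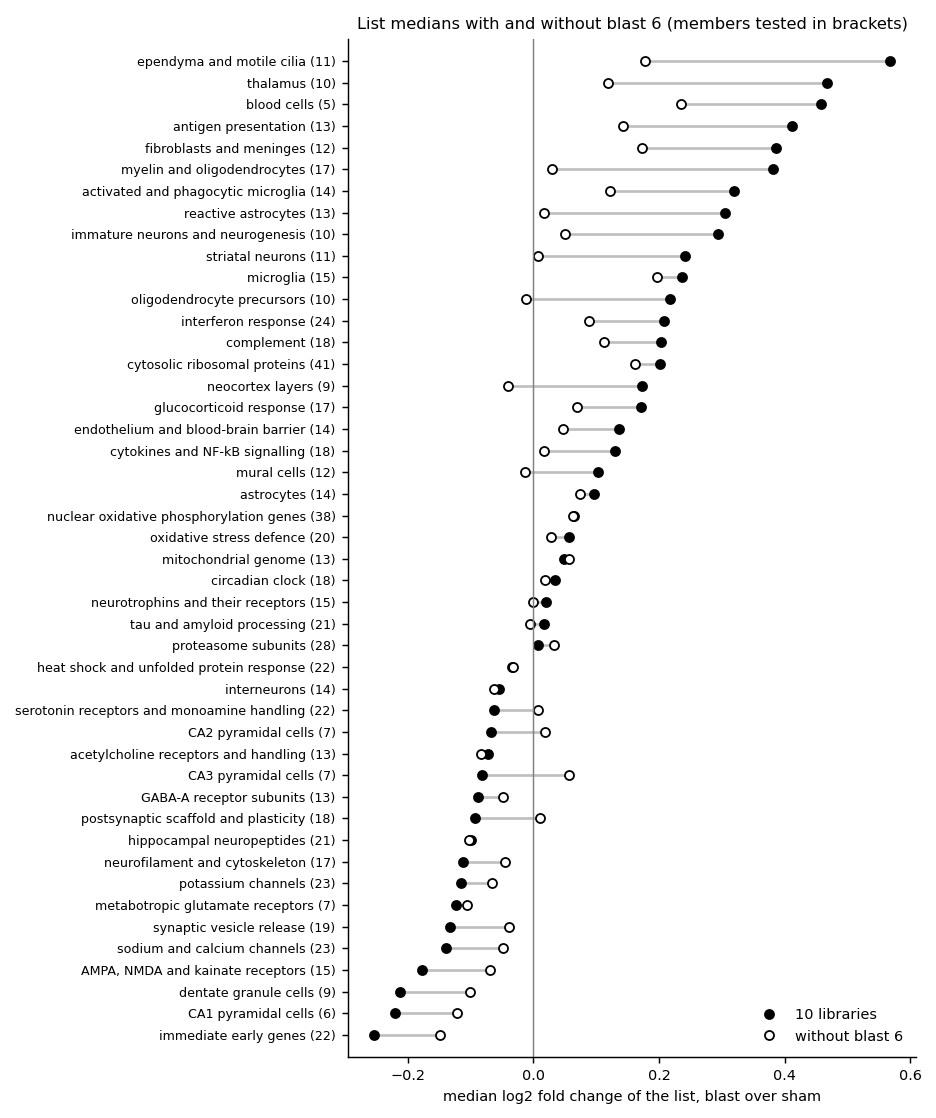
Median log2 fold change of blast over sham (x axis) of each gene list (y axis, members tested in brackets) with 10 libraries (filled) and without blast 6 (open); the choroid plexus list, at 4.25 and 2.80, lies off the scale and is left out. Microglia stay at 0.20 and ribosomal proteins at 0.16 without blast 6, while myelin moves to 0.03 and reactive astrocytes to 0.02. Immediate early genes have the lowest median, -0.25, and -0.15 without blast 6.

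Clock genes and tau and amyloid genes gave medians near that of all genes, and glucocorticoid response genes gave a higher one with blast 6. Of 17 glucocorticoid response genes, 14 were higher with 10 libraries (median 0.17) and 12 without blast 6 (median 0.07). Fkbp5, a receptor co-chaperone induced by glucocorticoids, was at 44.0 to 74.6 CPM in blast and 64.1 to 77.5 CPM in sham (-0.13 ± 0.13, and -0.03 ± 0.09 without blast 6). The 18 clock genes had medians of 0.03 and 0.02. Per2, a core clock repressor, had 59.2, 66.8, 59.8, 75.2 and 56.3 CPM in blast and 68.5, 64.1, 66.4, 78.7 and 81.5 CPM in sham, and its log2 fold change was -0.18 ± 0.10, or -0.25 ± 0.08 without blast 6. The labels give no hour of tissue collection. Of 21 tau and amyloid genes, 11 were higher and 10 lower (medians 0.02 and -0.01). Mapt, the tau gene, was at 718 to 764 CPM in blast and 701 to 819 CPM in sham (-0.03 ± 0.07, and -0.03 ± 0.06 without blast 6), and App at 1204 to 1428 CPM in blast and 1297 to 1470 CPM in sham (-0.08 ± 0.08, and -0.05 ± 0.06 without blast 6). Nefl, the neurofilament light chain, was at 544 to 1126 CPM in blast and 855 to 1091 CPM in sham (-0.15 ± 0.16, and -0.02 ± 0.09 without blast 6).

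Whether the hippocampal differences departed from those of amygdala, anterior cortex and cerebellum was tested in 1 fit of all 36 libraries, as the hippocampal log2 difference minus the mean of the other 3. None of 17120 genes passed the threshold (0% called, smallest adjusted p = 0.318 by edgeR's quasi-likelihood test with Benjamini-Hochberg adjustment), and 794 (4.64%) were higher and 337 (1.97%) lower at an unadjusted p under 0.05. The median difference over all genes was 0.00626. Ribosomal protein genes had 40 of 41 differences above 0, with a median of 0.23 and 26 at an unadjusted p under 0.05, or 15 without blast 6 (median 0.18). Oxidative phosphorylation genes had 37 of 38 above 0, with a median of 0.15 and 12 at an unadjusted p under 0.05, or 5 without sham 16 (median 0.091) and 21 without sham 12 (median 0.18). The count over all genes, in either direction, moved too. It was 1131 of 17120 with all libraries, 586 of 17107 without blast 6, 868 of 17125 without sham 16 and 1630 of 17106 without sham 12. No gene passed after adjustment in the fit of all 36 libraries. Without blast 9, 8 genes passed, among them Rpl31 and Rpl37a, ribosomal protein genes outside the list of 46.

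Of the 6 leading genes on the higher side, Rpl37a had a difference of 0.64 ± 0.14, Rpl31 0.36 ± 0.08, Ndufa2 0.41 ± 0.09 and Copz2 1.48 ± 0.33. Rpl31 had 123, 115, 124, 137 and 102 CPM in the hippocampus of blast rats and 93.0, 112, 93.4, 79.2 and 94.8 CPM in that of sham rats, where sham 12 alone lay in the blast range. LOC103693430 and LOC108348106 were the other 2 higher ones, at 0.71 ± 0.15 and 3.52 ± 0.76. On the lower side Fbrs had a difference of -0.22 ± 0.06 and Pcnx3 of -0.20 ± 0.06. Fbrs was at 36.7 to 40.5 CPM in blast and 42.0 to 46.7 CPM in sham and Pcnx3 at 102 to 113 CPM in blast and 115 to 127 CPM in sham, both without overlap. Rpl7a, LOC100360117, LOC367195 and Ccdc142 made up the rest, with differences of -4.19, -4.02, -1.49 and -2.72.

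For microglia and immediate early genes the same contrast gave medians nearer to 0 than the hippocampal fold changes did. Microglial genes had a median difference of 0.10, with 13 of 15 above 0 and none at an unadjusted p under 0.05, and without blast 6 the median was 0.031 with 9 above 0. P2ry12 had a difference of 0.13 and Csf1r of 0.13. Immediate early genes had a median of -0.10, with 17 of 22 below 0 and none at an unadjusted p under 0.05, and without blast 6 the median was -0.046 with 13 below 0. Bdnf had a difference of -0.45, and Ctsz of 0.49.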

How the data were processed

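RNA-seq libraries of rat brain were deposited as 1 table per region. The raw columns hold read counts per gene, and the authors deposited FPKM, log2 fold changes and p-values beside them. The count columns were tested, FPKM was kept only as a mean per group, and the authors' p-values were only counted. The submitters' processing notes name CASAVA, and no label or header names the aligner, the counting program or the genome build. Total RNA was extracted with Qiazol and RNeasy columns and made into libraries with NEBNext Ultra, per the labels' protocols. Another 62 columns of per-sample values were not used, and 25 gene names in the hippocampus table had turned into dates.

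Genes were kept with filterByExpr, scaled by TMM and tested with edgeR 4.0.16 (quasi-likelihood F test, Benjamini-Hochberg adjustment over all genes tested, R 4.3.3), blast over sham. DESeq2 1.42.0 and limma 3.58.1 gave alternatives. CPM values are TMM-scaled counts relative to library size, list scores use log2 CPM with a prior count of 2, and ± is the SE of a log2 fold change. For the edgeR fits this SE is the absolute log2 fold change divided by the square root of the F statistic. It therefore follows from the test and is not a separate measure of spread. The named genes were taken from the 10 of smallest p in each direction, the 8 in each direction with the smallest larger p of the fits with and without blast 6, the lead genes and the 3 members of smallest p of each list, and the 6 of smallest p in each direction for the difference between regions. Egr2, Egr4, Npas4, Pvalb, Cx3cr1 and Cpne1 fall outside that rule and were picked with their values in view, and a few genes the rule takes are not reported here. The members and lists were chosen with earlier results of these data known. On simulated counts of the 15349 genes in 10 libraries, the test called 34.8% of genes changed by 1.5-fold, 80.3% of those changed by 2-fold and 96.8% of those changed by 4-fold, with 7 false calls. In the simulation each gene varied on its own, so no simulated library carried a shift shared by many genes, as blast 6 did. How often such changes would be called in the real libraries was not tested.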

Additional observations from a re-analysis of the deposited data

Results flagged for a closer look

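In 33 of 294 groups of 5 libraries examined (11.2%), over 47 list scores and 100 genes, 1 library lay far from the other 4 of its group. Chance gives about 1 in 20 such groups, and the groups share libraries.

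Among list scores, blast 6 stood above the other blast libraries for oligodendrocyte precursors (5.6, others 4.72 to 4.87), blood cells (4.90, others 3.93 to 4.09), thalamus (4), neocortex layers (5.28) and striatal neurons (3.46, others 2.54 to 2.79). It stood below them for postsynaptic scaffold (7.93, others 8.46 to 8.54) and synaptic vesicle release (8.31, others 8.69 to 8.81). Sham 12 stood below the other sham libraries for dentate granule cells (6.24, others 6.45 to 6.50), potassium channels (5.90) and sodium and calcium channels (6.98).

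Among single genes, blast 6 was far above the other blast libraries for Lsp1 (5.35 CPM), Bmp4 (19.4 CPM), Ptgfrn (55.0 CPM), Ctsz (23.0 CPM), Cd74 (33.4 CPM), Mbp (12350 CPM) and Col1a1 (17.2 CPM). It was far below them for Egr4 (7.32 CPM), Grin1 (395 CPM), Camk2a (1457 CPM), Syn1 (431 CPM) and Chrm1 (78.4 CPM). Blast 9 stood apart for Sst (17.7 CPM) and Cpne1 (12.2 CPM, others 1.48 to 2.33 CPM), and blast 1 for Npas4 (14.4 CPM, others 1.81 to 3.18 CPM). Sham 12 was far above the other sham libraries for Ccdc152 (13.8 CPM), Ttr (459 CPM), Kl (11.9 CPM), Rps6 (58.6 CPM), Fkbp5 (77.5 CPM), Cpne1 (16.6 CPM) and Rpl7a (106 CPM). Sham 10 was below them for Ptprh (2.14 CPM, others 2.64 to 2.82 CPM).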

How the results depend on the processing

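The number of genes past the threshold was 0 in every alternative except without blast 9, where Cpne1 was called, so leaving out 1 library gave 0 to 1. The 805 genes at an unadjusted p under 0.05 became 503 (without blast 6) to 1357 (without blast 9) on leaving out 1 library, 296 with choroid plexus score added as covariate, 351 without blast 2 and 6, and 1694 in a fit of all 36 libraries. The 130 genes without overlap became 338 without blast 2 and 6, where fewer libraries are compared. For the difference from the other regions, leaving out 1 library gave 0 to 8 genes past the threshold, 8 without blast 9, among them Rpl31 and Rpl37a.

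Of 1700 log2 fold changes of 100 named genes under alternatives, 1676 kept their direction and 24, in 13 genes, turned. With choroid plexus score added as covariate these were Prox1 (0.11), Camk2a (0.081), Htr2c (-0.23), Cd74 (-0.28), Gfap (-0.11), Vim (-0.12), Aqp4 (-0.038), Ttr (-0.53) and Kl (-0.069). Without blast 2 and 6 they were Prox1 (0.044), Pdyn (0.044), Camk2a (0.054), Htr2c (-0.20), Cd74 (-0.34), Gfap (-0.072), Aqp4 (-0.019) and Ttr (-0.31). Aqp4 also turned with voom quality weights (-0.0045). Leaving out 1 library gave -0.16 (without blast 9) to 0.032 (without blast 6) for Camk2a, -0.019 (without blast 6) to 0.090 (without blast 1) for Gfap and -0.027 (without blast 6) to 0.081 (without blast 1) for Aqp4. It gave -0.088 (without sham 16) to 0.037 (without sham 12) for Pvalb, -0.057 (without sham 12) to 0.0046 (without sham 10) for Mapt and -3.63 (without sham 13) to 0.15 (without sham 12) for Rpl7a. The cause was not tested beyond the libraries left out.

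Of 47 list medians, 38 kept their sign without blast 6, 37 without blast 2 and 6, 37 with the choroid plexus covariate and 43 with voom quality weights. With the covariate the medians that turned included dentate granule cells (0.025), metabotropic glutamate receptors (0.044), postsynaptic scaffold (0.016), reactive astrocytes (-0.037), myelin (-0.041) and ependyma (-0.058). Without blast 2 and 6 they included dentate granule cells (0.015), mural cells (-0.018) and myelin (-0.013).

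Libraries of different regions share title numbers. Of 26 such pairs 8 had a correlation of deviations over 0.1 (-0.131 to 0.165), and not every pair did, so by the rule used here the numbers were not taken as pairs. In 17 of the 26 the closest library, out of 3 to 5 of the other region and the same treatment, had the same number. This is a hint from the data, not from the labels, that numbers are shared. With the replicate block the difference between regions had 0 genes past the threshold and 1176 at an unadjusted p under 0.05, against 1131, and limma-voom with the correlation within numbers gave 944. Ribosomal protein genes at that p were 27 with the block and 28 with the correlation, against 26, and oxidative phosphorylation genes 9 and 13, against 12. Within hippocampus no paired analysis was possible because blast and sham share no number.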

Other observations

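Other lists gave the following median log2 fold changes with 10 libraries and without blast 6. Of 10 genes of immature neurons and neurogenesis, 8 were higher in blast, with a median log2 fold change of 0.29, or 0.05 without blast 6. Of 11 ependymal and cilia genes 9 were higher (medians 0.57 and 0.18, and 0.059 without blast 2 and 6), of 12 mural cell genes 9 (0.10 and -0.01), of 5 blood cell genes 4 (0.46 and 0.24) and of 11 striatal genes 6 (0.24 and 0.01). The 7 metabotropic glutamate receptors had medians of -0.12 and -0.105, the 17 neurofilament and cytoskeleton genes -0.11 and -0.05, the 20 oxidative stress genes 0.06 and 0.03, and the 22 heat shock genes -0.03 in both. The 22 serotonin and monoamine genes had medians of -0.06 and 0.01, and the 13 acetylcholine genes -0.07 and -0.08.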
